A study of Mus musculus with 18 samples.

Results

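The genes described here are the mouse chemokines and their receptors, chosen by symbol: ligands of the Ccl, Cxcl, Cx3cl and Xcl series, the Ccr, Cxcr, Cx3cr and Xcr receptors, the atypical receptors Ackr1 to Ackr4, and Gm1987, a Ccl21-like gene. They made up 62 of the 24054 genes in each table, 40 ligands, 18 receptors and 4 atypical receptors. mRNA was sequenced from the hypothalamus, pituitary and thyroid of 3 WT and 3 K146Q mice, which gave 18 libraries in 6 groups of 3. All were untreated C57BL/Ntac males aged 3 months. K146Q mice were homozygous for a whole-body knock-in that replaces lysine with glutamine at a sumoylation site of the thyroid hormone receptor THRB in all of its isoforms, so every cell type carried the change, and it was bred on the WT substrain. A library is 1 mouse. As the change is a point mutation, the level of Thrb mRNA does not check the labels. The same mouse numbers recur in the 3 tissues (WT 1, 2 and 43, K146Q 60, 62 and 83), values are given below in that order, and whether libraries of equal number came from the same animal is not stated.

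Chemokines are small secreted proteins that guide migrating leukocytes. They bind G protein-coupled receptors that signal through Gi proteins and beta-arrestins, while atypical receptors bind the same ligands without G protein signalling and remove or transport them. Homeostatic chemokines such as Cxcl12, Cxcl13 and Ccl21 position cells in resting tissue, and inflammatory ones such as Ccl2 and Cxcl10 are induced by cytokines. In brain, fractalkine (Cx3cl1) is made by neurons and its receptor Cx3cr1 by microglia.

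Values are normalized CPM (reads scaled to library size), and libraries held between 14902330 and 21230050 reads, so that 3 reads were worth 0.133 to 0.190 CPM. Differences are K146Q minus WT on the log2(CPM + 0.5) scale, which understates the change of low genes, and adjusted p-values are from limma over all genes tested in a tissue (at least 0.5 CPM in at least 3 of 6 libraries). The labelled tissues were checked with the summed levels of marker lists. Passing the filter says little here, as at least 5 markers of each list passed it in every tissue. The 7 thyroid follicular markers summed to at least 90316 CPM in each thyroid library and at most 232 CPM elsewhere. The 8 pituitary hormone cell markers summed to at least 110072 CPM in the pituitary and at most 601 CPM elsewhere. The 6 neuron and glia markers summed to at least 5135 CPM in the hypothalamus and at most 861 CPM elsewhere. One thyroid library stood apart. In WT mouse 2 the thymus markers Rag1, Dntt, Psmb11 and Prss16 were at 10.3, 12.2, 7.59 and 20.3 CPM, against at most 6.096 CPM in any other thyroid library, and Ccl25 and its receptor Ccr9, which guide developing T cells in the thymus, were at 9.24 and 2.09 CPM there. Thyroid calls that change without that library are named. Skeletal muscle markers also varied among thyroid libraries, from 362 to 6704 CPM in WT and from 783 to 3857 CPM in K146Q mice, with 0 of 6 called. The tissues are mixtures of cells, and fewer cells of a type and less RNA per cell cannot be told apart.

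Compared per kilobase of exon, the WT tissues were led by different genes. Cx3cl1 was highest in the hypothalamus at 92.8 CPM per kb, followed by Cxcl14 at 31.97 and Ackr1 at 21.8 CPM per kb, and the ranges of these genes over the 3 mice did not overlap. In the pituitary Cxcl14, a homeostatic chemokine of epithelia, stood at 68.9 CPM per kb and Cx3cl1 at 63.2, with overlapping ranges, and the third, Ccl27a, was at 5.77 CPM per kb. In the thyroid the first was Cxcl13, which attracts B cells, at 28.1 CPM per kb, ahead of Cx3cl1 at 19.3 and Cxcl12 at 18.6 CPM per kb, whose ranges overlapped each other. The level of Ackr1 needs care: its exons share 361 bases with exons of Cadm3 on the same strand, and Cadm3, a neuronal adhesion gene, was at 367 to 387 CPM in the WT hypothalamus. Ccl19, Ccl21a, Ccl21b and Gm1987 have none or more than 1 position in the annotation used and are not ranked.

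**Figure D1:**
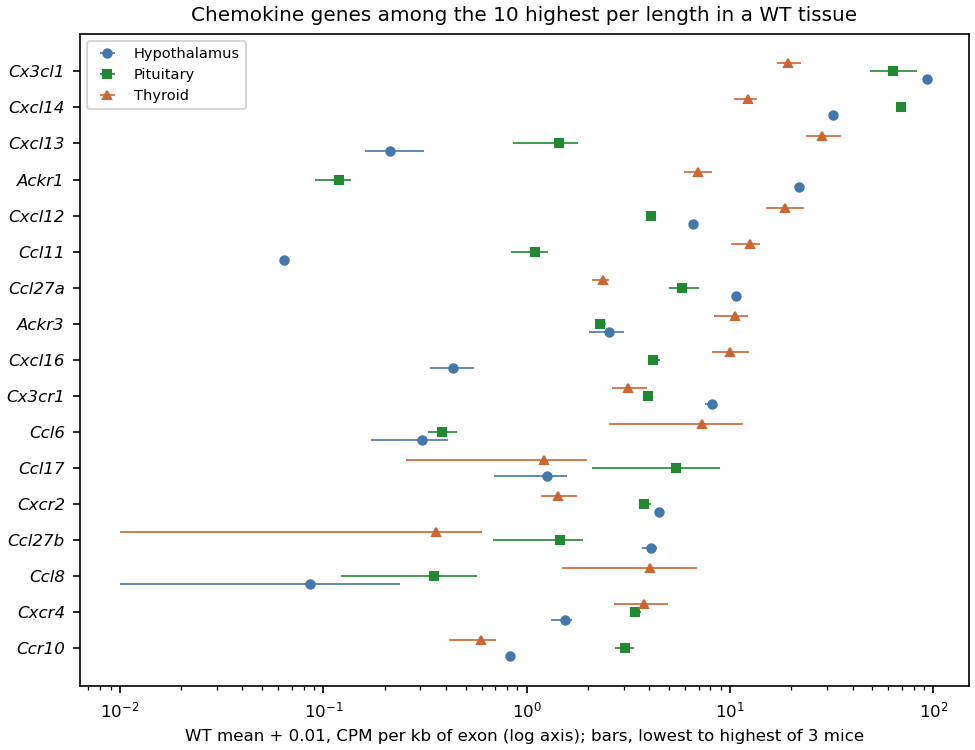
WT levels of the chemokine genes that rank among the 10 highest per length in at least 1 tissue, in CPM per kb of exon on a log axis with 0.01 added; symbols are means and bars run from the lowest to the highest of 3 WT mice. Cx3cl1 and Cxcl14 lie at the top in hypothalamus and pituitary, while Cxcl13 and Ccl11 are each higher in the thyroid than in the other two tissues.

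In the K146Q thyroid most of the measurable chemokine genes differed from WT. Of 62 genes 46 were tested, 23 rose and 6 fell, so that 63.0% of those tested were called. The background was high: 37.8% of all 15200 genes tested in the thyroid were called, 19.7% higher and 18.1% lower. The median difference was 0.94 for the chemokine genes and -0.03 for all genes. A gene with all values of 1 genotype under 0.5 CPM passes the filter only through the other and is high there by that choice. Ccl12 and Ccl20 passed only through K146Q and Ccr10 and Cxcl15 only through WT, and of the other 42, 26 were called. The 26 include Ccl2, Ccl7, Cxcl1, Cxcr3 and Cxcr6, which had fewer than 3 WT libraries at 0.5 CPM or more. These genes also needed K146Q libraries to pass. The genotypes did not overlap for 34 of the 46 genes, where 52.3% of all genes did not. Without WT mouse 2 the count was again 29, with 23 higher and 6 lower: Cxcl1 and Ccl21c were lost and Gm1987 and Cxcr5 gained.

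**Figure D2:**
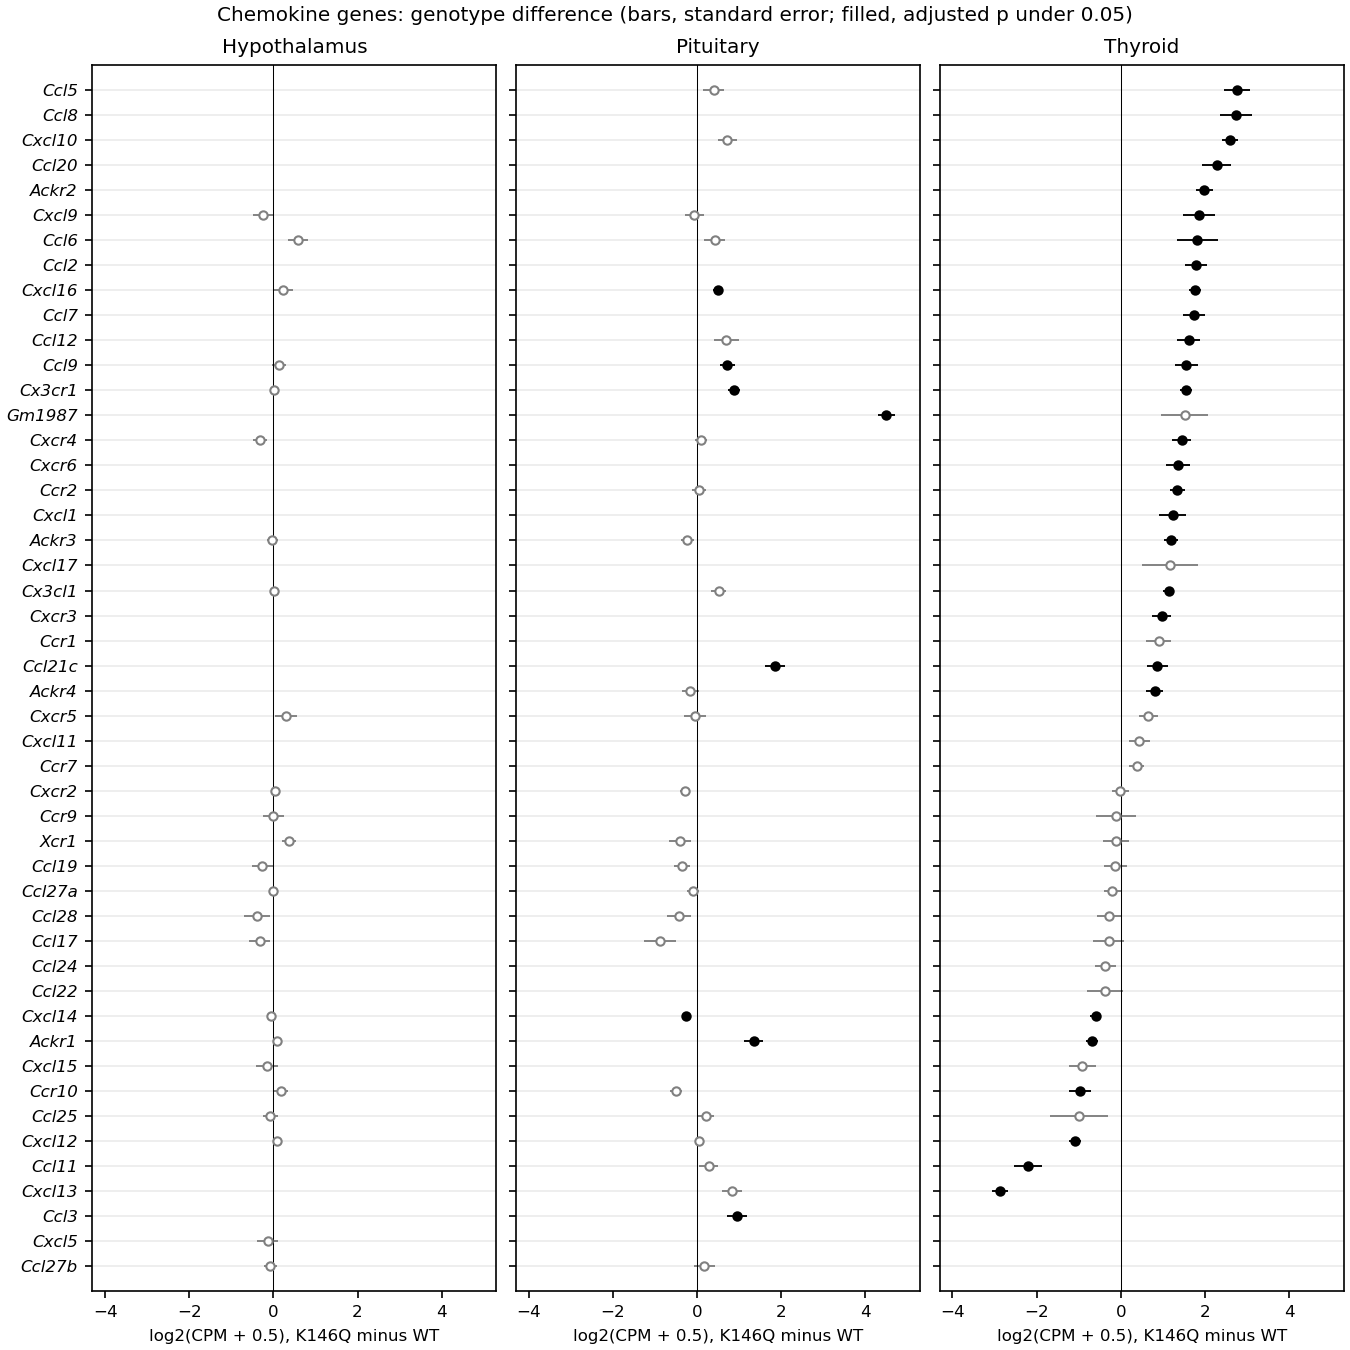
Difference between K146Q and WT on the log2(CPM + 0.5) scale for the chemokine genes tested and reported by name, by tissue; points are fitted differences, bars are standard errors, and filled points have an adjusted p under 0.05. The thyroid holds 28 filled points, 22 to the right of 0, the pituitary 8 and the hypothalamus 0.

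Of 16 inflammatory ligands that attract monocytes, eosinophils and T cells, 11 were tested in the thyroid. Of these 8 rose and 1 fell, beside 19.7% higher and 18.1% lower of all genes. Among the 8, Ccl12 and Ccl20 passed the filter only through K146Q mice and are high there by that choice. Ccl2 and Ccl7 had fewer than 3 WT libraries at 0.5 CPM or more and also needed K146Q libraries to pass. Ccl5, which attracts T cells and monocytes, read 1.77, 0.506 and 1.02 CPM in WT and 12.4, 8.99 and 8.32 CPM in K146Q mice. All 3 K146Q values lay above all WT values, and the difference was 2.76 (SE 0.31, adjusted p = 0.000560). Ccl8, a ligand made by tissue macrophages, read 1.89, 0.759 and 3.49 CPM against 17.8, 13.9 and 12.96 CPM, a difference of 2.74 (SE 0.38, adjusted p = 0.00147). Ccl2, the main monocyte attractant, read 1.01, 0.3797 and 0.361 CPM against 2.97, 3.11 and 3.22 CPM, a difference of 1.78 (SE 0.26, adjusted p = 0.00162). Its close relatives Ccl7 and Ccl12, also ligands of Ccr2, rose by 1.74 and 1.61 on the log2 scale (adjusted p = 0.00197 and 0.00291). Ccl9 and Ccl6, ligands of Ccr1, started from higher levels. Ccl9 read 12.8, 6.71 and 14.7 CPM against 39.9, 29.5 and 30.3 CPM, a rise of 1.56 (adjusted p = 0.004005), and Ccl6 read 13.7, 4.56 and 20.7 CPM against 55.1, 39.8 and 29.3 CPM, a rise of 1.82 (adjusted p = 0.0229) that was no longer called without K146Q mouse 60 or 62.

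Ccl11 (eotaxin), which attracts eosinophils through Ccr3, went the other way. It read 14.6, 15.2 and 10.9 CPM in WT and 4.76, 1.65 and 1.99 CPM in K146Q mice, a difference of -2.197 (SE 0.33, adjusted p = 0.00205). Ccl11 lies in the monocyte chemoattractant cluster on chromosome 11 (GRCm38): Ccl2 from 82035571 to 82037453, Ccl7 from 82045712 to 82047525, Ccl11 from 82057823 to 82062955, Ccl12 from 82101845 to 82103400 and Ccl8 from 82115185 to 82116799, all on the plus strand. The 4 genes on either side of Ccl11 rose while it fell. Ccr3 held 1 WT and 2 K146Q thyroid reads in all.

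Of the 3 ligands of Cxcr3, which interferon induces, Cxcl10 and Cxcl9 rose. Cxcl10 read 3.66, 2.78 and 2.105 CPM in WT and 20.9, 17.4 and 20.5 CPM in K146Q mice, a difference of 2.61 (SE 0.19, adjusted p = 0.000112). Cxcl9 read 2.08, 1.77 and 0.842 CPM against 11.6, 4.35 and 5.86 CPM, a difference of 1.86 (SE 0.38, adjusted p = 0.00769), with K146Q mouse 60 the highest. The exons of Cxcl10 share 133 bases with Art3 on the opposite strand, which was not called (-0.38, adjusted p = 0.1095), and whether the counting used strand is not given in the sources used here. Cxcl11, annotated as a polymorphic pseudogene in this mouse genome, read 0.821, 1.33 and 0.662 CPM and 1.04, 1.53 and 1.76 CPM, and the genotypes overlapped. The receptor Cxcr3 itself, found on activated T cells, rose by 0.97 (SE 0.23, adjusted p = 0.0141), a call lost without K146Q mouse 62.

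Cxcl1, a neutrophil attractant, and Ccl20, the ligand of Ccr6, rose from near 0. Ccl20 had 0 reads in all 3 WT thyroids and 3.47, 1.06 and 1.82 CPM (119 reads in all) in K146Q mice, at least 35.3-fold higher when WT is set to 3 reads over the group; Ccr6 held 2 and 4 reads. Cxcl1 read 0.695, 0.253 and 0.481 CPM against 2.87, 1.53 and 1.17 CPM, a difference of 1.23 (SE 0.31, adjusted p = 0.0184), a call lost without WT mouse 2 (adjusted p = 0.0510). Cxcl10, Cxcl1 and Ccl20 rose and, with Ccl9, held a match in a motif search of the 250 bases before the annotated start, and for that reason their stretches are printed. The sequences are from RefSeq (GRCm38.p6), 5′ to 3′ on the strand of the gene, at chr5:92349020-92349139 (minus strand, 250 to 131 bases before the start) for Cxcl10, chr5:90891115-90891234 (plus strand, 130 to 11 bases before) for Cxcl1 and chr1:83116636-83116755 (plus strand, 130 to 11 bases before) for Ccl20. Capitals mark the match, on either strand, to an interferon-stimulated element (GAAA, any 2 bases, GAAA) in Cxcl10, and to an NF-kappa-B type motif (GGG, any 2 bases, TTTCC) in the other two.
Cxcl10: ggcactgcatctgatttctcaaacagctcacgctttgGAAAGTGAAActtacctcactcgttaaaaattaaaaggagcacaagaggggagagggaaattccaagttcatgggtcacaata
Cxcl1: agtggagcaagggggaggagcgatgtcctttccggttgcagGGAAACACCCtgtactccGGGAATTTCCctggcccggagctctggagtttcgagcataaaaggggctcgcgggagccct
Ccl20: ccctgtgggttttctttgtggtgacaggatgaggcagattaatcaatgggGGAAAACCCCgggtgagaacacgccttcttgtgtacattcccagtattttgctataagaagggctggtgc
Of the 62 genes, 45 matched a RefSeq promoter entry. The NF-kappa-B type motif was met in 6 of them (Ccl20, Ccl9, Ccr3, Cxcl1, Cxcl2 and Cxcl3), against 1.65% of all genes with an entry, and the interferon-stimulated element in 3 (Ccl19, Cxcl10 and Cxcl14), against 3.46%. The form of the first motif with AC as the free bases and the cAMP response element TGACGTCA were met in 0 of the 45, against 0.159% and 1.77% of all genes. Of the 29 genes called in the thyroid 21 had an entry, 3 with the first motif and 2 with the second, 1 of which, Cxcl14, fell.

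Of the 13 homeostatic ligands tested in the thyroid 3 rose and 3 fell, shares near the 19.7% higher and 18.1% lower of all genes. Cxcl13 fell most of all: 29.4, 40.6 and 27.1 CPM in WT and 4.16, 3.17 and 4.63 CPM in K146Q mice, a difference of -2.86 (SE 0.19, adjusted p = 8.53e-05). Cxcl12, made by stromal cells and the ligand of Cxcr4 and Ackr3, fell from 145, 189 and 123 CPM to 70.8, 73.5 and 67.1 CPM, a difference of -1.09 (SE 0.15, adjusted p = 0.00129). Cxcl14 fell from 19.1, 24.6 and 23.2 CPM to 15.7, 14.8 and 13.01 CPM, a difference of -0.599 (adjusted p = 0.00992). The genotypes did not overlap for any of these 3 genes.

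The membrane-bound chemokines rose, each together with its receptor. Cxcl16 read 37.2, 29.1 and 24.6 CPM in WT and 98.4, 102 and 106 CPM in K146Q mice, a difference of 1.76 (SE 0.14, adjusted p = 0.000155), and its receptor Cxcr6, found on T cells, rose by 1.37 (adjusted p = 0.00809). The exons of Cxcl16 share 552 bases with Zmynd15 on the opposite strand; Zmynd15 was at 2.72 to 3.16 CPM in WT and 9.52 to 13.2 CPM in K146Q mice, and its part in the Cxcl16 value was not tested. Cx3cl1 read 87.97, 66.8 and 73.01 CPM against 158, 189 and 154 CPM, a difference of 1.14 (SE 0.13, adjusted p = 0.000532). Its receptor Cx3cr1 read 17.5, 13.3 and 11.7 CPM against 38.9, 45.4 and 41.6 CPM, a difference of 1.55 (SE 0.15, adjusted p = 0.000330).

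**Figure D3:**
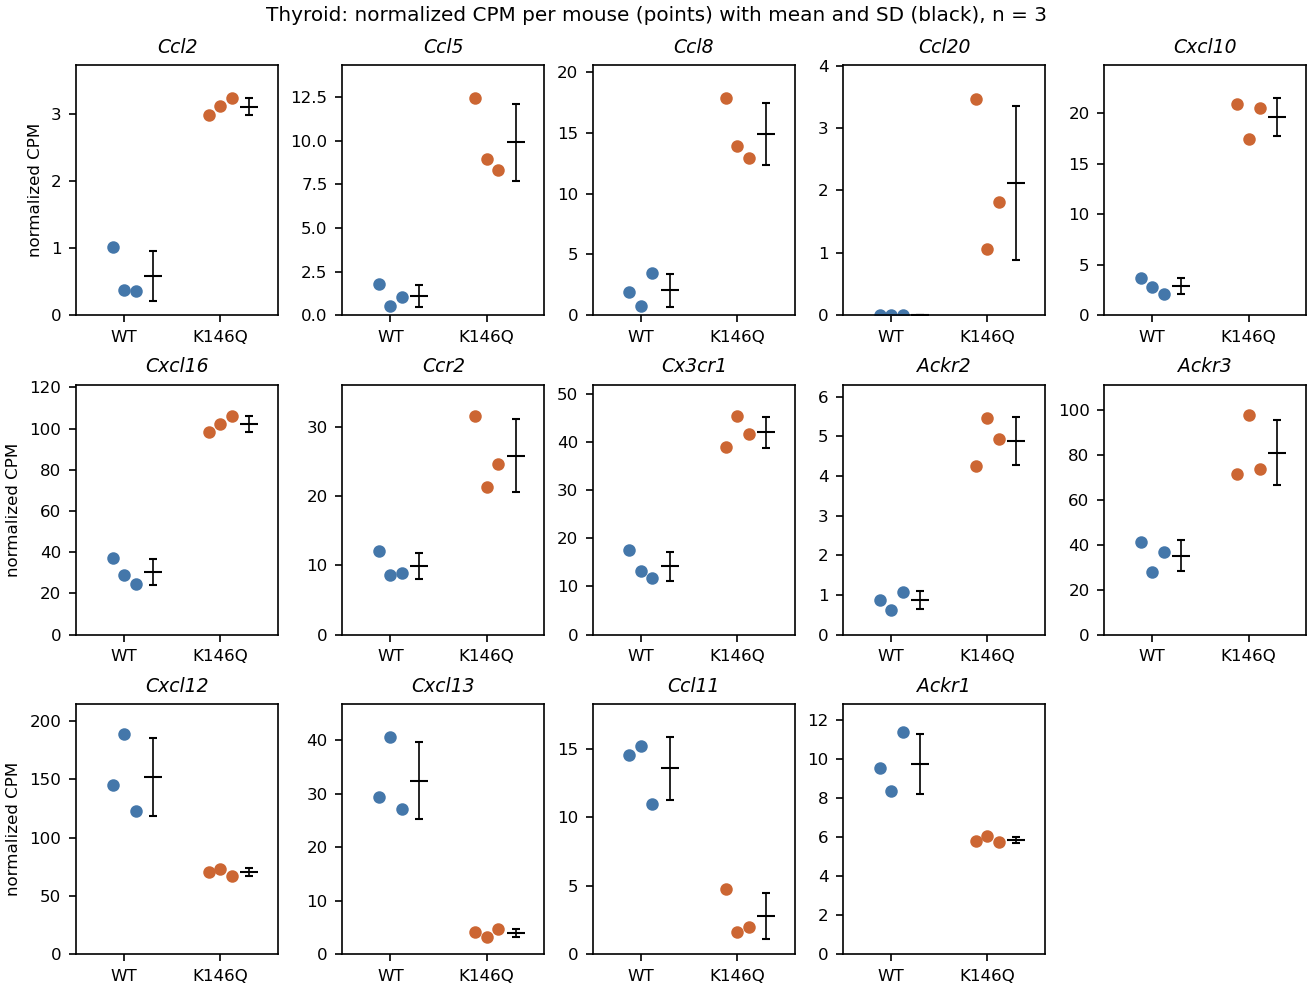
Normalized CPM of 14 chemokine genes in each thyroid library, WT in blue and K146Q in orange, with mean and SD in black (n = 3 each); each panel has its own axis from 0. The genotypes are separate in every panel, with Cxcl12, Cxcl13, Ccl11 and Ackr1 lower and the other 10 higher in K146Q mice.

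Of the 13 receptors tested in the thyroid 6 rose and 1 fell, beside 19.7% higher and 18.1% lower of all genes. Ccr2, the receptor of inflammatory monocytes, read 11.999, 8.61 and 8.96 CPM in WT and 31.6, 21.3 and 24.6 CPM in K146Q mice, a difference of 1.34 (SE 0.18, adjusted p = 0.00129). Cxcr4 rose while its ligand Cxcl12 fell, from 8.97, 6.58 and 4.81 CPM to 15.4, 20.4 and 21.4 CPM, a difference of 1.45 (SE 0.23, adjusted p = 0.00244). Ccr10, the receptor for Ccl27 and Ccl28, was low and passed the filter only through WT mice. Its value was lower in K146Q mice (-0.97, adjusted p = 0.0231), a call lost in 4 of 6 fits that leave out 1 mouse. The 2 receptors Ccr1 and Cxcr5 lay just past the threshold without a call, Ccr1 at 0.902 (adjusted p = 0.0505) and Cxcr5, the receptor of Cxcl13, at 0.65 (adjusted p = 0.0545).

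The atypical receptors moved in both directions. Ackr2, which degrades inflammatory CC chemokines, read 0.884, 0.633 and 1.08 CPM in WT and 4.26, 5.47 and 4.92 CPM in K146Q mice, a difference of 1.99 (SE 0.198, adjusted p = 0.000350). Ackr3, which takes up Cxcl12, read 41.1, 27.8 and 36.9 CPM against 71.4, 97.7 and 73.9 CPM, a difference of 1.19 (SE 0.17, adjusted p = 0.00168). Ackr4, which scavenges Ccl19 and Ccl21, rose by 0.81 (adjusted p = 0.0163), a call lost without K146Q mouse 60; its exons share 479 bases with Acad11 on the opposite strand, which was lower in K146Q mice (-0.69, adjusted p = 0.00294). Ackr1, a chemokine-binding protein of red cells and venules, fell from 9.54, 8.35 and 11.4 CPM to 5.799, 6.05 and 5.74 CPM, a difference of -0.68 (SE 0.15, adjusted p = 0.00975), and its same-strand neighbour Cadm3 fell with it (-1.16, adjusted p = 0.000344).

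The genes not called in the thyroid fall into 2 kinds. The 17 that were tested and not called had differences between -1.001 (Ccl25) and 1.52 (Gm1987). A further 16 stayed under the filter, among them Ccl26 and Cxcr1 at 0 reads in all 6 libraries. Ccl3 and Ccl4, macrophage inflammatory proteins, were under it with 10 WT against 57 K146Q reads and 3 against 54 reads in all, the latter a ratio of 16.0 (95% counting interval 5.196 to 80.1). Their K146Q values did not overlap WT, at 1.19, 1.53 and 0.4104 CPM for Ccl3 and 0.892, 1.82 and 0.293 CPM for Ccl4. Cxcl2 and Cxcl5, neutrophil attractants, also lay apart by genotype with 6 against 28 and 2 against 9 reads, and Xcl1, with 3 against 16 reads, overlapped. The other 9 (Ccl1, Ccl21a, Ccl21b, Ccl27b, Ccr3, Ccr4, Ccr6, Ccr8 and Cxcl3) overlapped between genotypes. How many of all genes under the filter lay apart by genotype was not counted.

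In the pituitary the chemokine genes moved less. Of 32 tested 8 rose and 1 fell, 28.1% of those tested, where 9.86% of all 15589 genes tested were called (6.36% higher and 3.5% lower). The median difference was 0.19 for the chemokine genes and -0.0088 for all genes. Gm1987, Ccl21c, Ackr1 and Ccl3 passed the filter only through K146Q and are high there by that choice; of the other 28, 5 were called. The genotypes did not overlap for 13 of the 32 genes, where 31% of all genes did not. Cx3cr1 read 17.7, 18.6 and 16.9 CPM in WT and 38.3, 35.3 and 26.2 CPM in K146Q mice, a difference of 0.87 (SE 0.14, adjusted p = 0.00383). Ccl3 read 0.178, 0.286 and 0.228 CPM against 1.29, 0.9699 and 0.552 CPM, a difference of 0.94 (adjusted p = 0.03895). Ccl9 rose by 0.72 (SE 0.19, adjusted p = 0.0391) and Cxcl16 by 0.49 (SE 0.11, adjusted p = 0.0246). K146Q mouse 83 was the lowest of the K146Q mice for Cx3cr1, Ccl3, Ccl9, Cxcl16 and Ackr1. Cxcl14, which had the highest WT mean per length in this tissue, fell from 120.4, 129.5 and 128 CPM to 102, 107 and 107 CPM, a difference of -0.26 (SE 0.07, adjusted p = 0.0404).

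Ackr1 rose in the pituitary from 0.178, 0.172 and 0.114 CPM to 1.29, 1.53 and 0.752 CPM, a difference of 1.34 (SE 0.24, adjusted p = 0.00701). Its neighbour Cadm3 was at 3.83 to 5.41 CPM in WT and 14.5 to 25.1 CPM in K146Q mice, a difference of 1.86 (adjusted p = 0.000603). Over the 3 tissues Ackr1 and Cadm3 were thus both without a call in the hypothalamus, both lower in the K146Q thyroid and both higher in the K146Q pituitary, and reads of the 2 genes cannot be told apart over the shared bases. Of the neuron and glia markers, Snap25 and Syt1 rose in the pituitary (summed level of all 6, 529 to 599 CPM in WT and 792 to 861 CPM in K146Q mice), and their part in the result was not tested.

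Only Gm1987, Ccl21c, Ackr1 and Cx3cr1 kept their pituitary calls whichever mouse was left out, and the count was 4 without K146Q mouse 60 or 62 and 5 without WT mouse 2. The 4 genes nearest the threshold without passing it were Cxcl13 at 0.83 (adjusted p = 0.0564), Ccr10 at -0.496 (adjusted p = 0.05901), Cxcl10 at 0.72 (adjusted p = 0.0762) and Cx3cl1 at 0.52 (adjusted p = 0.106). Among the genes of high mean value that were not called, Cxcl12 stood at 33.4 ± 0.406 CPM in WT and 34.6 ± 1.97 CPM in K146Q mice (mean ± SD, n = 3 each), Ccl27a at 13.7 ± 2.56 and 12.6 ± 0.131 CPM, and Cxcr2 at 11.5 ± 0.833 and 9.31 ± 1.07 CPM. Ackr3 and Cxcr4 differed by -0.23 and 0.09. Under the filter were 30 genes, with at most 18 reads in a library, among them Ccl1, Ccl20, Ccl26 and Cxcr1 at 0. Of these 30, Cxcl5 (22 WT and 5 K146Q reads) and Cxcr6 (22 and 40 reads) did not overlap between genotypes. The share without overlap among all genes under the filter was not counted.

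**Figure D4:**
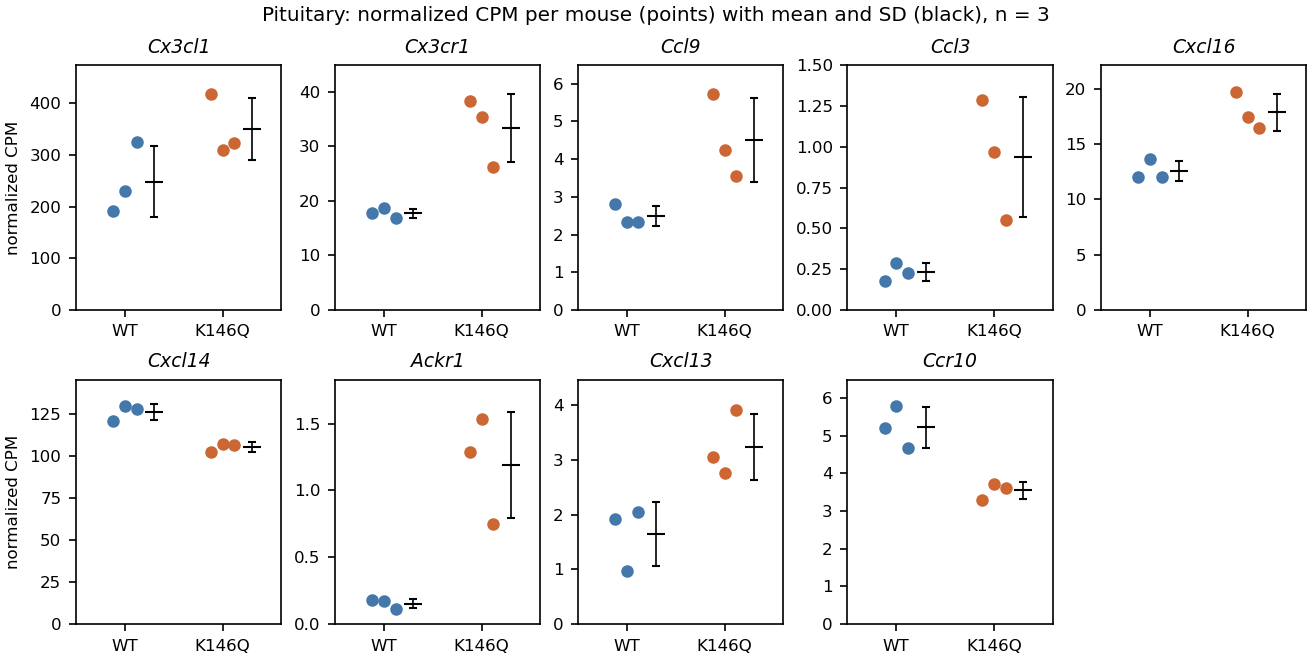
Normalized CPM of 9 chemokine genes in each pituitary library, WT in blue and K146Q in orange, with mean and SD in black (n = 3 each); each panel has its own axis from 0. Cx3cr1, Ccl9, Ccl3, Cxcl16 and Ackr1 are higher and Cxcl14 and Ccr10 lower in all 3 K146Q mice, while Cx3cl1 overlaps.

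Gm1987, the symbol added to the name rule, had the largest difference among the chemokine genes of the pituitary. It belongs to the Ccl21 genes, whose product draws dendritic cells and T cells through Ccr7 and is made by lymphatic endothelium and lymph node stroma. Gm1987 had 2 reads over the 3 WT pituitaries and 698 reads over the 3 K146Q pituitaries, at 0, 0 and 0.114 CPM and 13.7, 8.68 and 13.2 CPM, a ratio of 341 (95% counting interval 94.0 to 2819) and a fitted difference of 4.501 (SE 0.21, adjusted p = 2.01e-05). Ccl21c read 0, 0.0572 and 0.05696 CPM against 0.9804, 1.63 and 1.81 CPM, 2 against 87 reads. Several of the Ccl21 genes are near-identical copies, and how reads were divided among the group is uncertain. The Ccl21c values were identical in all 18 libraries to those of Gm10591, Gm13304 and Gm21541. To show how little sequence separates the copies, bases 70 to 205 of the 402-base coding sequence (GENCODE M21 transcripts, GRCm38, counted from the A of the start codon) are given for Ccl21a (chr4:42772860-42773993, minus strand) and Ccl21b (chr4:42255767-42256432, plus strand), with capitals at the 2 positions that differ, A84T and T194C (the base of Ccl21b first).
Ccl21a: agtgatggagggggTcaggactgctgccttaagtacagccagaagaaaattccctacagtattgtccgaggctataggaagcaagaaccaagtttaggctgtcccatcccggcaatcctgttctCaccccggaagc
Ccl21b: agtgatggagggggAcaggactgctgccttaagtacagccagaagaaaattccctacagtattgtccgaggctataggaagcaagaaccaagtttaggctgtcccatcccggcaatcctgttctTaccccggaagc
The coding sequences of Gm10591, Gm13304 and Gm21541 were 100% identical to that of Ccl21b, and Ccl21a was 99.5% identical. Gm1987 and Ccl21c were not among the sequences compared.

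The 7 Ccl21 rows were therefore also summed, each in full. Whether the rows with identical values hold divided reads or the same reads counted repeatedly is not known. The counting interval below takes them as independent counts. In the pituitary the summed row passed the filter only through K146Q mice and is high there by that choice. In the pituitary the sum was 0.178, 0.229 and 0.342 CPM in WT (14 reads) and 17.6, 15.2 and 20.4 CPM in K146Q mice (1046 reads), a difference of 4.601 (SE 0.17, adjusted p = 3.51e-06) and a read ratio of 73.0 (95% counting interval 43.3 to 134). In the thyroid the sum was 20.02, 19.995 and 30.1 CPM against 46.9, 38.8 and 44.1 CPM, a difference of 0.897 (SE 0.17, adjusted p = 0.00533), and 0.80 (adjusted p = 0.0159) without WT mouse 2. In the hypothalamus it stayed between 1 and 11 reads a library. The share of each row was not the same in every mouse: in the thyroid of WT mouse 2, the library with the thymus markers, Ccl21a made 57.3% of the sum and Gm1987 18.4%, while in the other thyroids Ccl21a made at most 1.69% and Gm1987 at least 71.9%. Gm1987 alone was not called in the thyroid (1.52, adjusted p = 0.0663). Ccr7, the receptor of Ccl21 and Ccl19, differed by 0.37 (adjusted p = 0.143) in the thyroid and held at most 5 reads in a pituitary library. Of 6 lymphatic endothelium markers 3 rose (Pdpn, Flt4 and Mmrn1) and 1 fell (Prox1) in the thyroid, where 37.8% of all genes were called. Their summed level there was 63.3 to 70.5 CPM in WT and 168 to 179.7 CPM in K146Q mice. In the pituitary, where 9.86% of all genes were called, 1 of 6 (Flt4) rose. The sum there was 102.9 to 117.9 CPM in WT and 128 to 148 CPM in K146Q mice. None of these markers was at 0, and their part in the result was not tested.

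**Figure D5:**
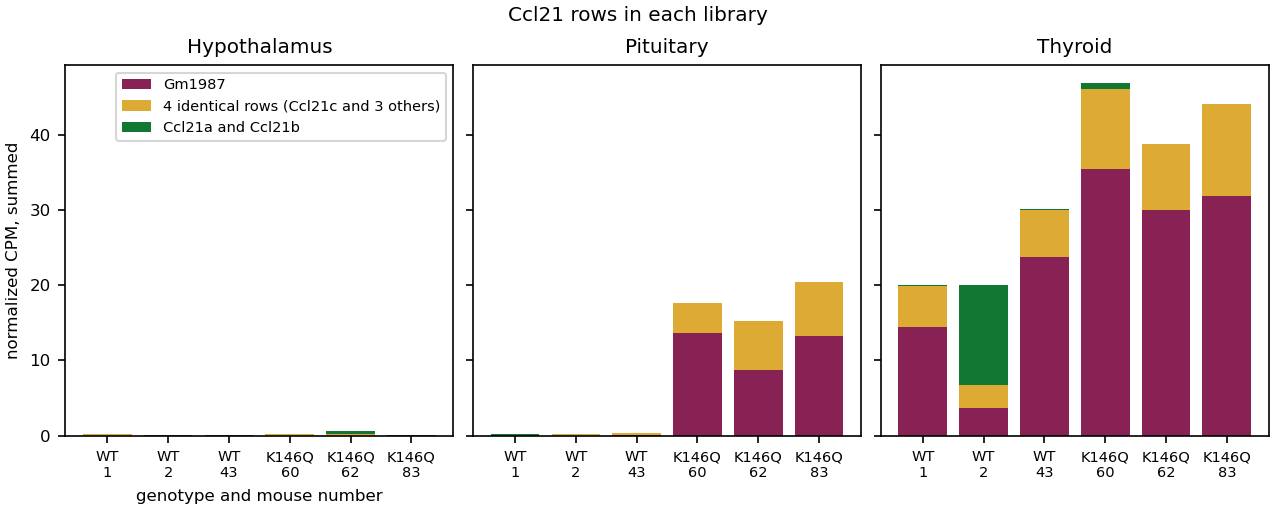
Summed normalized CPM of the 7 Ccl21 rows in each library, split into Gm1987, the 4 rows with identical values, and Ccl21a with Ccl21b. The K146Q pituitaries reach 15.2 to 20.4 CPM against at most 0.342 CPM in WT, and among the thyroids that of WT mouse 2 alone is made mostly of Ccl21a and Ccl21b.

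In the hypothalamus 25 chemokine genes were tested and 0 were called by limma, as were 0 of all 15761 genes (0%). At an unadjusted p under 0.05 there was 1 chemokine gene, Ccl6, where 4.09% of all genes passed; edgeR called 0 genes and DESeq2 9 (0.0571%), 0 of them a chemokine gene. Ccl6 read 0.716, 0.289 and 0.5802 CPM in WT and 1.27, 0.8005 and 1.02 CPM in K146Q mice (adjusted p = 0.998). Cx3cl1, the highest, read 371, 365 and 358 CPM and 349.6, 365 and 396 CPM, a difference of 0.02 (95% interval -0.09 to 0.13). Cx3cr1 differed by 0.02 (95% interval -0.13 to 0.16), Cxcl12 by 0.09 (95% interval -0.03 to 0.22) and Cxcl14 by -0.05 (95% interval -0.19 to 0.09). Among the other genes of high mean value, Ackr1 stood at 30.7 ± 0.309 CPM in WT and 32.5 ± 1.26 CPM in K146Q mice (mean ± SD, n = 3 each), Ccl27a, a ligand of Ccr10, at 25.4 ± 1.299 and 25.3 ± 3.702 CPM, and Cxcr2, the receptor for Cxcl1, at 13.6 ± 0.252 and 14.1 ± 2.21 CPM. Ackr3 and Ccl9 had differences of -0.03 and 0.12. The genotypes did not overlap for 4 of the 25 genes, where 9.15% of all genes did not. Under the filter were 37 genes with at most 13 reads in a library, 6 of them (Ccl1, Ccl20, Ccl26, Cxcl2, Cxcr1 and Gm1987) at 0 reads, and differences in these were not detectable at this depth.

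Across the tissues 31 of the 62 genes were called at least once. Of all genes tested, 37.8% were called in the thyroid, 9.86% in the pituitary and 0% in the hypothalamus. Their share called at least once, or in more than 1 tissue, was not counted. Cx3cr1, Ccl9, Cxcl16 and Ccl21c were higher in both thyroid and pituitary, Cxcl14 was lower in both, and Ackr1 was higher in the pituitary and lower in the thyroid. Whether the genotype effect itself differed between tissues was tested on all 18 libraries. It differed for 25 of 50 chemokine genes between thyroid and pituitary (33.8% of all genes), for 28 of 50 between thyroid and hypothalamus (30.8% of all genes) and for 4 of 50 between pituitary and hypothalamus (3.24% of all genes). Many of these genes were under the filter in the second tissue taken alone (8 of the 25, 16 of the 28 and 2 of the 4), and their difference then largely restates the effect in the first tissue. Between thyroid and pituitary Cxcl13 had the largest gap, a thyroid minus pituitary difference of -3.69 (SE 0.31, adjusted p = 1.37e-07), its fitted pituitary effect being above 0. Cxcl10, Cxcl16 and Cx3cr1 rose more in the thyroid than in the pituitary, by 1.89, 1.27 and 0.67 (adjusted p = 8.67e-05, 0.00135 and 0.0116), the last not without WT mouse 2 or K146Q mouse 83. Ccl9, called in both tissues, was not shown to differ between them (0.84, adjusted p = 0.0649).

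Genes around the chemokine system were counted from lists of its signalling, inducers and binding partners, and the counts are to be read against the 37.8% of all genes called in the thyroid (19.7% higher) and the 9.86% in the pituitary (6.36% higher). In the thyroid 20 of 37 genes of receptor signalling rose and 2 fell, among them the phosphoinositide 3-kinase subunit Pik3cg (2.03, adjusted p = 0.000294), the GTPase Rac2 (1.46, adjusted p = 0.000614) and the kinase Fgr (1.32, adjusted p = 0.00122). In the pituitary 3 of 37 rose and 1 fell, a share near that of all genes; these were the kinases Adrbk2, Lyn and Ptk2b and the exchange factor Prex1. Of the cytokines and factors that induce chemokine transcription, 12 of 15 rose and 0 fell in the thyroid. Il1b read 0.316, 0.1898 and 0.481 CPM in WT and 1.98, 3.35 and 3.22 CPM in K146Q mice, a difference of 2.003 (adjusted p = 0.000922), and Irf1, Tnf and Irf7 rose by 1.497, 1.39 and 1.36 on the log2 scale. Il1b passed the filter only through K146Q mice and is high there by that choice. The other genes of these lists were not checked for this. In the pituitary 1 of 13, Irf8, rose. Of the genes that shed, trim or bind chemokines 6 of 7 rose in the thyroid, led by the protease Dpp4 (1.15) and the proteoglycan Sdc4 (1.103), while in the pituitary 1 of 6, Sdc1, fell (-0.73). Of 10 relatives outside the symbol rule 6 rose and 1 fell in the thyroid, though 3 of the 6 carry the Ccl21c values. The complement receptor C5ar1 rose by 0.98 and chemerin, Rarres2, fell by 0.76. The hypothalamus held 0 calls in these lists, at the overall 0%.

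Markers of cell types were counted in the same way, again beside 37.8% of all genes called in the thyroid and 9.86% in the pituitary. Of 10 macrophage and microglia markers 7 rose in the thyroid, with summed levels of 159 to 231 CPM in WT and 421 to 464 CPM in K146Q mice, and 7 rose in the pituitary, 81.2 to 93.6 and 134 to 196 CPM; the hypothalamus had 0 of 10, 136 to 143 and 131 to 159.7 CPM. None of these markers was at 0. Of 9 T cell markers 2 rose (Cd4 and Cd2) and 0 fell in the thyroid, beside 19.7% higher and 18.1% lower of all genes. Of the 9 differences 8 were above 0, with a median of 0.66. Their summed level was 8.65 to 29.1 CPM in WT and 16.6 to 27.2 CPM in K146Q mice, the highest WT value being mouse 2. In the pituitary 0 of 5 tested were called. Of 7 dendritic cell markers 3 rose (Itgax, H2-Ab1 and Cd74) and 1 fell (Zbtb46) in the thyroid (522 to 648 and 1454 to 1867 CPM). In the pituitary 2 of 6, H2-Ab1 and Cd74, rose (197 to 208 and 350.4 to 605 CPM). Fibroblast markers, for cells that make Cxcl12 and Ccl11, had 3 higher (Col1a1, Col1a2 and Col3a1) and 2 lower (Dcn and Pdgfra) of 6 in the thyroid, and all 6 adipocyte markers fell there, from 699.6 to 775 CPM in WT to 97.9 to 194 CPM in K146Q mice. Of 6 B cell markers, for the cells Cxcl13 attracts, only 1 was tested in the thyroid, 3 in the pituitary and 0 in the hypothalamus, with 0 calls, and of the neutrophil markers only Mpo was tested in the thyroid, where it fell. Of 5 parathyroid and C cell markers 4 fell in the thyroid (5612 to 8479 and 689 to 1881 CPM). Of 7 thyroid follicular markers Tshr, Pax8 and Nkx2-1 rose and Foxe1 fell, with a median difference of 0.38. Their summed level, nearly all of it thyroglobulin (Tg), was 299623 to 361343 CPM in WT and 90316 to 137747 CPM in K146Q mice, without overlap. The limma fit did not call Tg itself (adjusted p = 0.8203), which does not show an unchanged level, and the reason was not tested. When library totals were taken without the 10 highest genes, the median of all thyroid genes shifted to -0.117, and 23 chemokine genes were higher and 7 lower. The 5 red cell markers had 0 calls in any tissue. The part of these cell types in the chemokine results was not tested.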

How the data were processed

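Total RNA from snap-frozen tissue was sequenced on Illumina instruments, 1 library per mouse and tissue. The submitters' processing notes name bcl2fastq 2.17, Bowtie2 2.1.0, RSEM 1.2.15 and genome build mm10, with no role or order. The authors deposited 1 table per tissue of normalized CPM, recorded here as a normalized signal, on a scale common to the 3 tables. Values were whole multiples of what 1 read is worth in 100% of cases (tolerance 0.02 reads), so reads were recovered for edgeR and DESeq2. The deposited log2 average CPM, calculated by the authors over all libraries, was used only to check that the scale is common. Their log2 fold changes, likelihood ratios, p-values and FDR were not used. Dates stood in place of 27 symbols in the hypothalamus and pituitary tables.

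A gene entered a tissue's test when 3 or more of the 6 libraries reached 0.5 CPM. limma 3.58.1 was run with its trend option on log2(CPM + 0.5), p-values were adjusted by Benjamini-Hochberg, and an adjusted p under 0.05 was a call. As the deposited values are normalized, this was the main test, and tests on the recovered reads were alternatives. Differences between tissues were fitted on 18 libraries with 6 group means. Genotypes share no mouse number. Alternatives were other pseudocounts, filters and scalings, no trend, edgeR 4.0.16, DESeq2 1.42.0, each mouse left out and, for tissue differences, the mouse number as a block. On simulated data limma recovered 99.5% of 200 genes changed 4-fold in the hypothalamus, 100% in the pituitary and 100% in the thyroid. False calls there were 4.33%, 5.66% and 5.66% in the same order. The simulation gave every gene and tissue the same spread between mice and changed only genes with a mean of at least 1 CPM. Real libraries of a group differed more in the thyroid and the WT pituitary than in the hypothalamus, so these rates need not hold in those groups. Recovery of the chemokine genes themselves, and of smaller changes, was not tested.

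Chemokine genes and lists were chosen with earlier results of these data known. Named with values are those called in any tissue, the 10 with the highest mean value in each, and those whose effect differed between tissues. Other genes are given as ranges and counts, and from each list at most the 4 with the largest change among those called are named. Genes of cell type lists, those nearest the threshold and those with few reads were named after their values were seen. Some genes that these rules would name are not reported here, and counts include them. Positions are from GENCODE M21 (GRCm38). Intervals and floors cover counting error only (95%, Clopper-Pearson, floor of 3 reads over a group). With 3 mice per genotype, an exact two-sided permutation test could not go below 0.10. R 4.3.3, Python 3.11.15 and matplotlib 3.10.9 were used.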

Additional observations from a re-analysis of the deposited data

Results flagged for a closer look

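These results were picked out because the K146Q effect of a chemokine gene differed between 2 tissues by the test of that difference (limma over 18 libraries, adjusted p under 0.05). Values in parentheses are the first tissue's log2 difference minus the second's. The comparisons share tissues and are not independent of each other.

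Between thyroid and pituitary 18 effects were higher in the thyroid. Among ligands they were Ccl5 (2.37), Ccl20 (2.28), Ccl8 (2.26), Cxcl9 (1.93), Cxcl10 (1.89), Ccl7 (1.72), Ccl2 (1.69), Cxcl1 (1.31), Cxcl16 (1.27), Cxcl5 (0.900) and Cx3cl1 (0.62). Among receptors they were Cxcr4 (1.36), Ccr2 (1.295), Cxcr6 (0.95) and Cx3cr1 (0.67), and among atypical receptors Ackr2 (1.78), Ackr3 (1.42) and Ackr4 (0.97). The 7 that were lower were Cxcl13 (-3.69), Gm1987 (-2.98), Ccl11 (-2.47), Ackr1 (-2.02), Cxcl12 (-1.13), Ccl21c (-0.98) and Cxcl14 (-0.34). Cxcl5 was under the filter in both tissues taken alone, with at most 8 reads in a library. A further 7 (Ackr2, Ccl2, Ccl7, Ccl8, Ccl20, Cxcl1 and Cxcr6) were under it in the pituitary, with at most 18 reads in a library and Ccl20 at 0, so that their values largely restate the thyroid effect. The calls of Cx3cl1 and Cxcl14 were lost without WT mouse 2 or 43 or K146Q mouse 62 or 83 (adjusted p up to 0.2295), those of Ackr4 and Cxcr6 without WT mouse 1 or 43 or K146Q mouse 60 (up to 0.112), that of Ccl21c without WT mouse 1 or 43 or K146Q mouse 62 (up to 0.0922), that of Cx3cr1 without WT mouse 2 or K146Q mouse 83 (up to 0.0669) and that of Cxcl5 without K146Q mouse 60 (0.0576). Gm1987 and Ccl21c belong to the Ccl21 genes, among which reads may be divided differently from library to library. The sequences of these 2 genes were not compared.

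Between thyroid and hypothalamus 22 effects were higher in the thyroid. Among ligands they were Ccl8 (2.78), Cxcl10 (2.78), Ccl5 (2.63), Ccl20 (2.28), Cxcl9 (2.104), Ccl2 (1.86), Ccl7 (1.69), Cxcl16 (1.53), Ccl12 (1.48), Ccl9 (1.43), Ccl4 (1.203), Cxcl1 (1.18), Cx3cl1 (1.12) and Ccl21c (0.83). Among receptors they included Cxcr4 (1.77), Cx3cr1 (1.53), Cxcr6 (1.19) and Ccr2 (0.99), and among atypical receptors Ackr2 (1.89), Ackr3 (1.22) and Ackr4 (0.88). The 6 that were lower were Cxcl13 (-2.901), Ccl11 (-2.19), Cxcl12 (-1.18), Ccr10 (-1.14), Ackr1 (-0.76) and Cxcl14 (-0.55). In the hypothalamus taken alone 16 of these 28 genes were under the filter, with at most 13 reads in a library and Ccl20 at 0, so that their values largely restate the thyroid effect; they were Ackr2, Ackr4, Ccl2, Ccl4, Ccl5, Ccl7, Ccl8, Ccl11, Ccl12, Ccl20, Ccl21c, Ccr2, Cxcl1, Cxcl10, Cxcl13 and Cxcr6. Ccl4 was under it in the thyroid too. Of 6 fits that leave out 1 mouse, the call was lost in 5 for Ccl4 (all but that without K146Q mouse 83, adjusted p up to 0.141) and Ccl21c (all but that without WT mouse 43, up to 0.123). It was also lost for Ackr4 without WT mouse 1 or 43 or K146Q mouse 60 (up to 0.0771), for Ccr2 without WT mouse 2 or K146Q mouse 83 (up to 0.0922), for Cxcl1 without WT mouse 2 or K146Q mouse 62 (up to 0.0547), for Ackr1 without WT mouse 43 or K146Q mouse 60 (up to 0.0645) and for Cxcr6 without K146Q mouse 60 (0.05898).

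Between pituitary and hypothalamus 4 effects were higher in the pituitary, those of Gm1987 (4.501), Ccl21c (1.804), Ackr1 (1.26) and Cx3cr1 (0.86). Gm1987 held 0 reads and Ccl21c at most 1 read in a hypothalamus library, so that both values restate the pituitary effect, and Gm1987, Ccl21c and Ackr1 had passed the pituitary filter only through K146Q mice. The call of Cx3cr1 was lost without WT mouse 2, K146Q mouse 60 or K146Q mouse 62.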

How the results depend on the processing

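In the hypothalamus 0 chemokine genes were called under any setting. The thyroid count ran from 28 (filter on a mean of at least 1 CPM) to 34 (no filter), and 28 of the 29 calls held under every alternative to the test, filter, scaling and pseudocount that was run; Ccr10, not tested under the filter on the mean, held under the others. The pituitary count ran from 6 (filter on a mean of at least 1 CPM) to 10 (DESeq2, and totals without the 10 highest genes). Pituitary calls lost included Ccl9 (no filter) and Cxcl14 (no trend, edgeR). Leaving out 1 mouse gave 4 to 9 calls in the pituitary and 25 to 30 in the thyroid when the tested genes were kept, and 1 to 7 and 23 to 30 when the filter was applied afresh to the remaining libraries. Without K146Q mouse 60 or 62 the fresh filter left 1 pituitary call, and without K146Q mouse 83 it left 5. Keeping the tested genes was made the primary form after the counts of the other were seen, and the fresh filter and the Ccl21 sum were chosen after seeing the data.

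For thyroid against pituitary, thyroid against hypothalamus and pituitary against hypothalamus, leaving out 1 mouse gave 22 to 25, 23 to 29 and 3 to 5 calls (21 to 25, 22 to 29 and 3 to 5 with the fresh filter). With edgeR these counts were 20, 14 and 2, and the Cxcr6 difference of thyroid against hypothalamus changed sign to -1.54 (adjusted p = 0.374); the cause was not tested. Libraries of different tissues share mouse numbers, which are not stated to mark the same animal: deviations of same-numbered libraries from their group means correlated with r from -0.0394 to 0.192 over 15440 genes, over 0.1 for 5 of 18 pairs, and a library correlated best with its own number in 24 of 36 cases. With the mouse number as a replicate block the counts were 27, 30 and 4. The block added Ccl12 and Ccl6 to the first and Ccl3 and Gm1987 to the second, and changed no other call. No paired analysis was possible within a tissue because the genotypes share no mouse number. With 3 reads worth 0.133 to 0.190 CPM, differences in the genes under the filter were not detectable at this depth unless large, as for Ccl4 in the thyroid.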
